A study of Homo sapiens with 2 samples.

Results

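Endocan and 7 further genes that are known mainly from the blood vessel wall were read in 2 human cell lines. The 8 genes were ESM1, TIE1, TEK, KDR, ENG, PECAM1, CDH5 and THY1, taken by symbol from the 24462 gene symbols of the count tables, where each has 1 row. They were chosen with the counts of these libraries in view, so every level and ratio of a member below is a description. MDA-MB-231 is a long-established human line of triple negative breast cancer, and RT-R-MDA-MB-231 is a radiotherapy-resistant line derived from it with repeated 2 Gy X-ray doses to a total of 50 Gy. The unirradiated line is called parental here and the irradiated one RT-R. Both lines were kept in RPMI medium with 10% fetal bovine serum, penicillin and streptomycin, and no other agent or allele is named in the labels. Each line gave 1 library from 500 ng of total RNA, made with a Lexogen QuantSeq kit, which sequences a tag near the 3' end of each polyadenylated transcript. Neither the number of clones behind the RT-R line nor the time since the last dose is given in the sources used here.

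The parental library held 9255008 counts and the RT-R library 10014804, so 1 count stood for 0.108 and 0.0999 CPM (counts per 1000000 counts of the library). With 1 library per line, no test across samples is possible and no p-value is given. Each interval below is an exact 95% interval of counting error within these libraries, which leaves out how cultures vary and treats PCR copies of a molecule as separate reads. A gene was measured when a library held at least 20 counts, and it was called higher or lower when the ratio was at least 2-fold with its interval on one side of equal expression. As a check of the label, the estrogen receptor gene ESR1 had 0 parental counts and 1 RT-R count and the progesterone receptor gene PGR had 0 in both. ERBB2 had 230 and 174 counts, and the keratin gene KRT18, an epithelial marker, had 2525 and 2816. In bulk RNA, a change in the number of cells that express a gene and a change in the RNA per cell cannot be told apart.

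Endocan is a small proteoglycan that endothelial cells secrete, carrying a chain of dermatan sulfate, and its gene ESM1 is known to be induced in vessels by VEGF and by inflammatory cytokines. TIE1 and TEK (TIE2) are the receptor tyrosine kinases of the angiopoietin system, and KDR (VEGFR2) is the main signalling receptor for VEGF-A. ENG (endoglin, CD105) is a co-receptor for TGF-beta family ligands, above all BMP9 with the receptor ALK1. CDH5 (VE-cadherin) and PECAM1 (CD31) hold neighbouring endothelial cells together, and THY1 (CD90) is a lipid-anchored surface protein of fibroblasts, pericytes and activated endothelium. PECAM1 is also found on leukocytes and platelets, and ENG and THY1 on mesenchymal stromal cells, so the 8 genes do not mark 1 cell type alone.

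The region around the start site is shown for 3 of the genes that were higher in RT-R, because ESM1, TIE1 and ENG all went from 3 counts or fewer to a measurable level. RefSeq windows of assembly GRCh38.p14, which run from 250 bases before the start site to 50 after it, matched 5 of the 8 members by symbol. PECAM1, CDH5 and THY1 were not matched. In the lines below, capitals mark each GGAA, the core letters bound by ETS transcription factors that act widely in endothelial genes, and its reverse complement TTCC, as well as the TATA box letters TATAAA. ESM1 is given from chr5:54985544-54985843 on the minus strand, TIE1 from chr1:43300732-43301031 on the plus strand and ENG from chr9:127854609-127854908 on the minus strand.
ESM1: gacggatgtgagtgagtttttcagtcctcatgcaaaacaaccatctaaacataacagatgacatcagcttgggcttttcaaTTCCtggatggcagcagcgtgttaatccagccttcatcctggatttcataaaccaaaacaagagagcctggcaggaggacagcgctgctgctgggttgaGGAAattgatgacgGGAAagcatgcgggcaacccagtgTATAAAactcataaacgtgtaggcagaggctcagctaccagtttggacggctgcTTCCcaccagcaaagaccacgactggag
TIE1: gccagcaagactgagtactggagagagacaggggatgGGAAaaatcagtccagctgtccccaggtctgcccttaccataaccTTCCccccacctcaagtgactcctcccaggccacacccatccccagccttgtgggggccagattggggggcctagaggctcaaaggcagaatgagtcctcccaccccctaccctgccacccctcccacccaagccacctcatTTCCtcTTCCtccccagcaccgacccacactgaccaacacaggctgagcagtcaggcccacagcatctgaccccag
ENG: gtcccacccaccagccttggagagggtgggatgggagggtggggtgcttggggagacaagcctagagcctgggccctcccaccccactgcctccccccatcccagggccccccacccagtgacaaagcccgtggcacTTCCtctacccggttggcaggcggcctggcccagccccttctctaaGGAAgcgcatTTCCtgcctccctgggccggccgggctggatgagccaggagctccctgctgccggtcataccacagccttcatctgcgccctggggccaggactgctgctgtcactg

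The 3 windows do not look alike in base composition. Counting both strands, GGAA was found 4 times in ESM1, 4 times in TIE1 and 3 times in ENG. Among all 35116 RefSeq windows of this length, 95.5% held it at least once and 46% held it at least 4 times, so most promoters hold it. TATAAA was found in ESM1 alone of these 3, at position -32 with the start site as 0, and in 11.5% of all windows. ESM1 also held ACGTG, the core letters of a hypoxia response element, which 21.4% of all windows hold on either strand. The AP-1 letters TGANTCA and the TEAD letters GGAATG, which contain GGAA, were in none of the 3 and in 7.71% and 14% of all windows. TIE1 had 1 CG dinucleotide in its window and ESM1 and ENG had 8 each, against a median of 14 over all windows. GC content was 49.3% in ESM1, 61.3% in TIE1 and 68.3% in ENG, with a median of 58.7% over all windows. The windows of KDR and TEK, which were too low to compare in the count data, held 1 GGAA for KDR and 4 and 7 for the 2 start sites of TEK. These matches describe letters in a window, and no binding was measured.

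Endocan transcripts were counted in the RT-R library and not in the parental one. ESM1 had 382 RT-R counts, or 38.1 CPM (34.4 to 42.2), and 0 parental counts. For ratios, a 0 was set at 3 counts, or 0.324 CPM in the parental library, while the exact interval of this 0 reached 0.399 CPM. At the RT-R level, the parental library would have held 342.5 counts. ESM1 was at least 114-fold higher in RT-R with the parental level set at 3 counts and the RT-R count taken as exact, and the lower end of the exact interval of its ratio was 92.4-fold. By the level of its tags, which are not divided by transcript length because each transcript yields about 1 tag, ESM1 ranked 4802nd of 17598 detected symbols in RT-R. Ranked by the interval bound nearest to equal expression, it stood in place 2 of the 871 genes called higher. No other gene of the RefSeq table overlaps ESM1 on chromosome 5.

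Of the 3 receptor tyrosine kinases, only TIE1 reached the count minimum. TIE1, a partner receptor that modulates TEK and binds no angiopoietin strongly by itself, had 0 parental and 48 RT-R counts, or 4.79 CPM (3.53 to 6.36), and was at least 14.3-fold higher by the same limit, with 11.2-fold as the lower end of its interval. TEK, the receptor that does bind the angiopoietins, had 0 counts in both libraries. The exact intervals of these zeros reached 0.399 CPM in the parental and 0.368 CPM in the RT-R library. KDR had 0 and 4 counts. At equal expression the RT-R level predicts 3.59 parental counts, so a difference in KDR was not detectable at this depth. TIE1 transcripts were thus seen in RT-R without measurable TEK or KDR.

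The endoglin and THY1 transcripts were also scarce in the parental library, and they were measurable but low in the RT-R library. There ENG ranked 11246th and THY1 10849th of 17598 detected symbols. ENG had 3 parental counts and 38 RT-R counts, which are 0.324 CPM (0.0669 to 0.947) and 3.79 CPM (2.69 to 5.21). The ratio of ENG was 11.4-fold, with an interval from 3.60 to 57.5. ENG overlaps 5 noncoding or pseudogene entries of the RefSeq table, none of which was matched to a row of the counts, so they were not analysed here. THY1 had 2 parental counts and 47 RT-R counts, or 0.216 CPM (0.0262 to 0.781) and 4.69 CPM (3.45 to 6.24), and a ratio of 21.1 (5.52 to 179). The wide intervals come from the 2 or 3 parental counts, and those of ENG and THY1 overlap broadly. Adding 5 to each scaled count in place of 0.5 moved the log2 ratio of ENG from 3.31 to 2.33 and that of THY1 from 4.11 to 2.80. THY1 overlaps the antisense gene USP2-AS1 in the RefSeq table, and since the use of strand is not stated, their reads cannot be told apart with certainty. USP2-AS1 itself had 2 and 4 counts.

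PECAM1 went the other way. It was the member with the most parental counts, 223, or 24.1 CPM (21.0 to 27.5), and it had 50 RT-R counts, or 4.99 CPM (3.71 to 6.58). At the parental level the RT-R library would have held 248.7 counts. PECAM1 was 4.97-fold lower in RT-R (3.65 to 6.90) and stood in place 29 of the 502 genes called lower by the same ranking. CDH5, its companion at endothelial junctions, had 0 parental counts and 1 RT-R count, so no ratio is given. PECAM1 made up 97.8% of the 228 parental counts of the 8 genes, and ESM1 67% of the 570 RT-R counts. The 7 genes other than PECAM1 had 5 parental and 520 RT-R counts in sum.

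Of the 8 members, 4 were called higher and 1 lower, and 3 (TEK, KDR and CDH5) were too low to compare. Over all 12644 measured genes, 6.89% were called higher and 3.97% lower. The members' counts cannot be read against these shares, because the genes were chosen by this same comparison. In addition, the 4 higher members passed the count minimum through the RT-R library alone, where a gene that is near 0 in the other library had to differ. The least abundant member that passed was ENG, with 38 counts in its higher library, and the most abundant that did not was KDR, with 4.

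**Figure D1:**
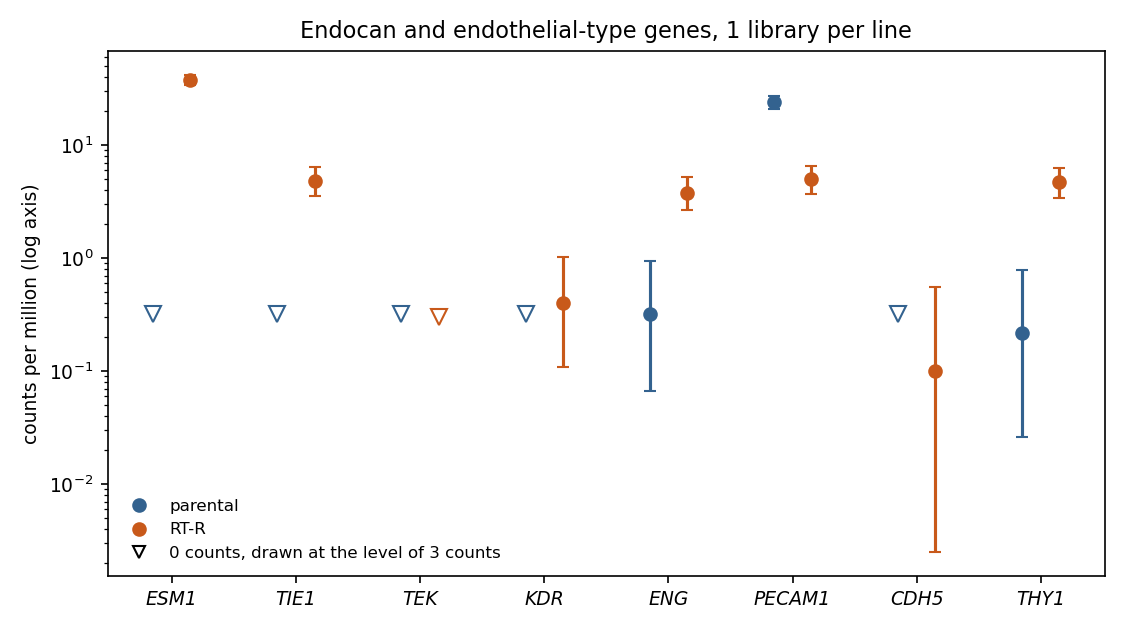
Level of each member in CPM (log axis) in the parental (blue) and RT-R (orange) library, 1 library per line; bars are exact 95% Poisson intervals of counting error, and open triangles stand for 0 counts, drawn at the level of 3 counts. ESM1 reaches 38.1 in RT-R, while TIE1, ENG, PECAM1 and THY1 lie between 3.79 and 4.99 there, and PECAM1 alone is high in the parental library, at 24.1.

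The plot of levels shows that TIE1, ENG, THY1 and PECAM1 reached nearly the same level in RT-R, with overlapping intervals, although they came from opposite sides. Set against all measured genes, the 4 higher members lie in the sparse upper left of the distribution, where a gene is near 0 in the parental library.

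**Figure D2:**
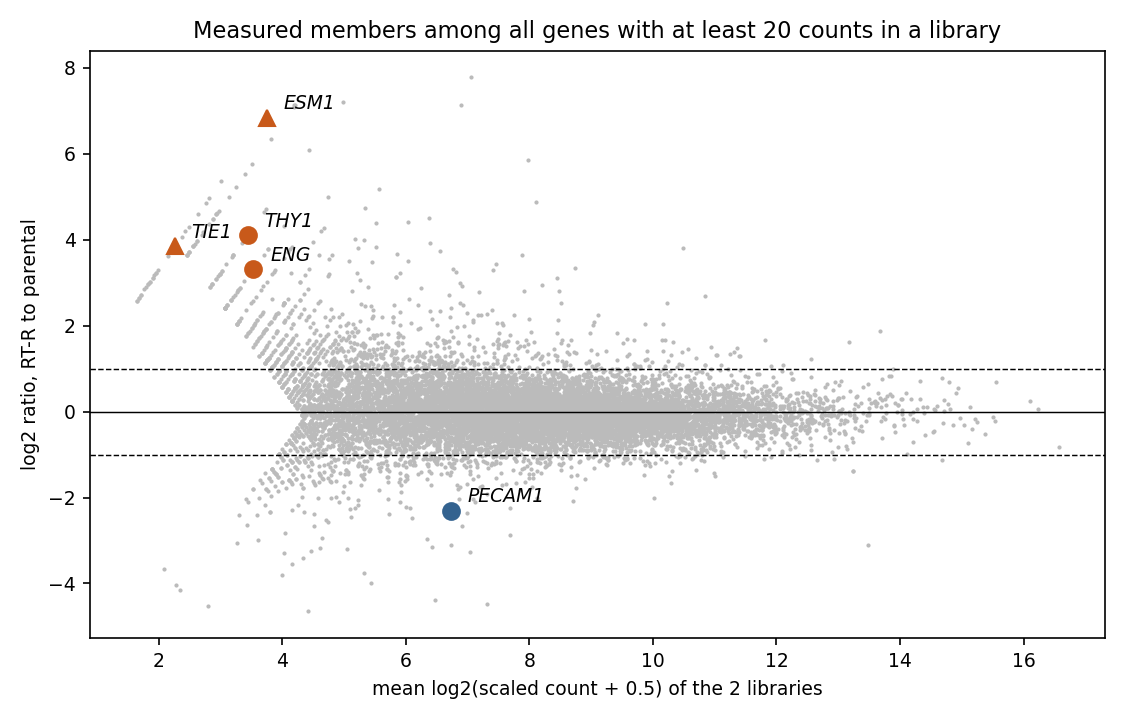
Log2 ratio of RT-R to parental against the mean log2(scaled count + 0.5) of the 2 libraries for 12644 measured genes (grey), with the 5 measured members in colour; dashed lines mark 2-fold, and triangles are members with 0 parental counts, placed at their lower bound. ESM1, TIE1, THY1 and ENG lie above the 2-fold line, and PECAM1 lies below it at -2.30.

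Genes with 0 parental counts were next ranked by their RT-R count, as a measure of likeness to ESM1 over the 2 libraries. ESM1 had the highest count of all of them, and TIE1 came in place 9. Between them stood ALPK2 with 137 counts, PLCB4 with 104, PLCH2 with 96, WNT5A with 81, GALNT9 with 66, the bradykinin receptor gene BDKRB2 with 61 and the phosphatase inhibitor gene PPP1R14C with 56. Of the measured genes, 30 had 0 counts in the parental library and 3 had 0 in RT-R.

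Few other genes of endothelial identity reached the count minimum. In a list of 35, 26 did not reach 20 counts in either library and 10 had 0 in both. The 9 measured genes had a median log2 ratio of 0.13, beside -0.01 over all measured genes. Of these 9, 2 were called higher and 0 lower, beside 6.89% and 3.97% of all measured genes. With a count minimum of 1, which adds genes of a few counts, the median was 1.00 and 4 were called higher. That minimum called 1178 genes higher and 657 lower over the whole table. The -0.01 belongs to the minimum of 20, and no whole-table median at a minimum of 1 is given here to set beside the 1.00. GATA2, a transcription factor of endothelial and blood progenitor cells, rose 2.49-fold (1.81 to 3.47), from 54 to 150 counts. PROX1, the master regulator of lymphatic endothelium, rose 6.28-fold (1.87 to 32.9), from 3 to 21 counts, and passed the minimum through the RT-R library alone. The adhesion molecule gene ESAM had 1531 and 1865 counts, a ratio of 1.09 (1.02 to 1.17), and the guidance receptor gene ROBO4 had 338 and 726, a ratio of 1.93 (1.69 to 2.198) that stayed below 2-fold. ICAM2 had 112 and 117 counts and EGFL7 55 and 85, with intervals that include equal expression. STAB1, a scavenger receptor of sinusoidal endothelium, had 130 and 90 counts, 1.61-fold lower (1.22 to 2.13), short of the threshold.

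Most defining markers of endothelium were at or near 0 in both lines. VWF, the clotting factor stored by endothelial cells, had 1 count in each library, and EMCN also 1 in each. CLDN5, SOX17 and CLEC14A had 0 in both, and the ETS factor gene ERG had 0 and 2. The 12 markers fixed for this cell type had 209.9 CPM in the parental and 269.2 CPM in the RT-R library in sum, of which ESAM gave most. Without ESAM the 11 others summed to 44.5 and 83.0 CPM, nearly all from ROBO4 and EGFL7, and 9 of the 12 were under 20 counts in both libraries. Of the fixed markers below the minimum, CD34 had 11 and 6 counts, SOX18 4 and 5, and MMRN2 2 and 5. Outside the 12, PTPRB and RASIP1 were also below the minimum and were picked after the counts were seen, because they were counted mostly in RT-R. Others outside the 12 and below the minimum differed less, such as SOX7 with 3 and 10 counts, NOTCH4 with 3 and 8 and S1PR1 with 3 and 5. PTPRB, the phosphatase that acts on TEK and VE-cadherin, had 1 and 17 counts, and RASIP1, a regulator of endothelial tube formation, had 1 and 12.

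**Figure D3:**
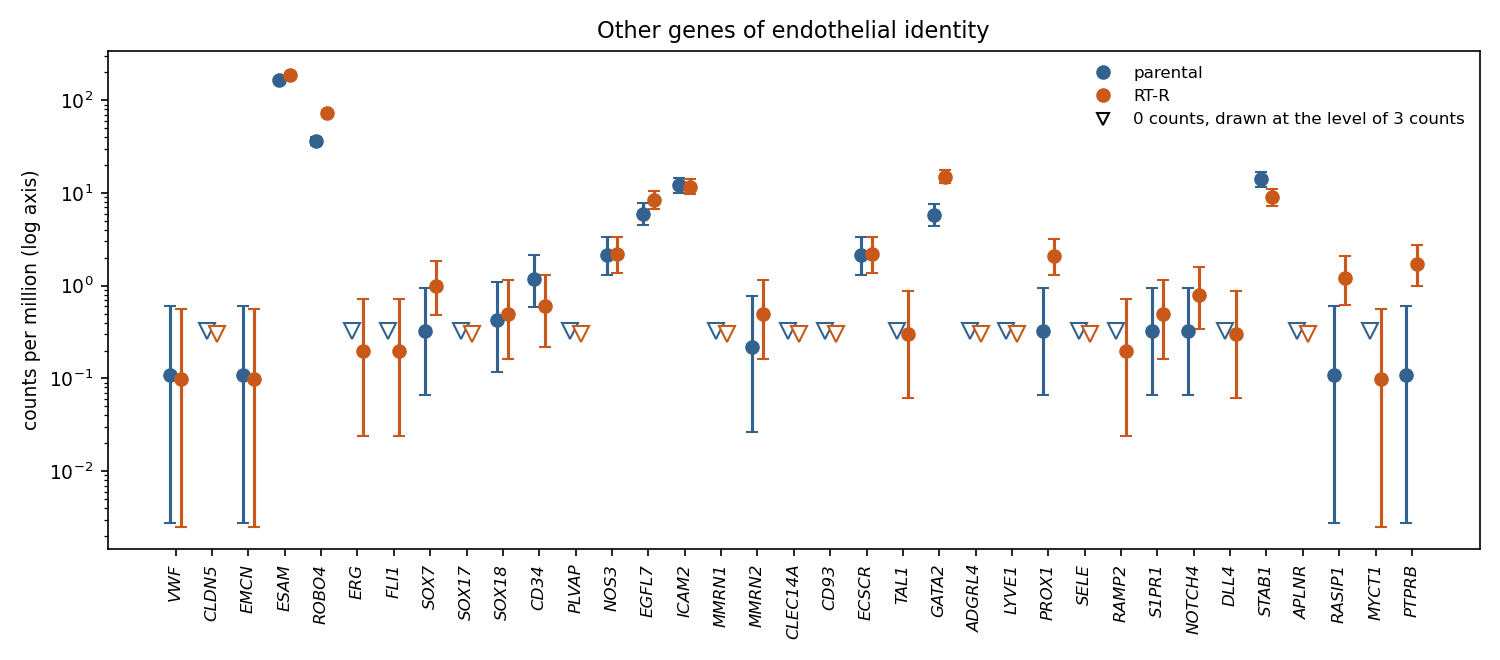
Level in CPM (log axis) of 35 further endothelial identity genes in the parental (blue) and RT-R (orange) library; bars are exact 95% Poisson intervals of counting error and open triangles stand for 0 counts, drawn at the level of 3 counts. ESAM and ROBO4 are the highest, and 10 genes have triangles for both libraries.

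Markers of other cell types were looked at beside these genes, since THY1, ENG and PECAM1 are shared with stroma and blood. The 10 pericyte and fibroblast markers had 133 parental and 131 RT-R counts in sum, and PDGFRA, COL3A1 and DCN were at 0 in both. The 10 leukocyte, platelet and erythroid markers had 22 and 56 counts in sum, and PTPRC (CD45), CD3E and the myeloid factor gene SPI1 were at 0 in both libraries. CD14 rose 2.498-fold (1.33 to 4.98), from 14 to 39 counts, and platelet factor gene PF4 had 2 and 13 counts. In the other direction, the macrophage gene LYZ had 5 and 2 counts, and CSF1R, a macrophage receptor gene of the wider list that is not among the 10, had 18 and 3, under the count minimum. The part of such cells in the member values was not tested beyond these sums.

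In the wider list of 22 pericyte, fibroblast and stromal genes, 3 of 11 measured genes were called higher and 1 lower. That stands beside 6.89% and 3.97% of all measured genes, and the median log2 ratio of the list was 0.21. MCAM (CD146), an adhesion molecule of endothelium and pericytes, rose 3.53-fold (3.14 to 3.99), from 344 to 1356 counts. CSPG4 (NG2), a chondroitin sulfate proteoglycan of pericytes, rose 3.26-fold (2.51 to 4.28), from 74 to 269 counts. The smooth muscle gene TAGLN rose 2.48-fold (1.57 to 4.05), whereas PDGFRB, the pericyte growth factor receptor, fell 2.07-fold (1.28 to 3.41) from 52 to 28 counts, a call that total-count scaling, upper-quartile scaling and a pseudocount of 5 each took below 2-fold. NT5E (CD73), ENG and THY1 together define mesenchymal stromal cells by convention, and NT5E was abundant in both lines, with 4202 and 3691 counts and a 1.27-fold lower ratio (1.21 to 1.33).

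In the VEGF system around KDR, a receptor, a ligand and an adaptor were higher in RT-R. Of 13 listed genes, 10 were measured, and 3 were called higher and 0 lower, beside 6.89% and 3.97% of all measured genes. The median log2 ratio of the list was 0.07. FLT1 (VEGFR1), a high-affinity VEGF receptor with weak kinase activity, rose 11.7-fold (2.92 to 101), from 2 to 26 counts, and like the higher members it passed the minimum through RT-R alone. Its specific ligand PGF, placental growth factor, rose 2.16-fold (1.60 to 2.95), from 63 to 152 counts. SH2D2A, an adaptor that binds KDR, rose 3.51-fold (2.17 to 5.88), from 22 to 86 counts. VEGFA had 3722 and 3247 counts, 1.28-fold lower (1.22 to 1.34), and VEGFC had 140 and 105. The co-receptor gene NRP1 had 853 and 660 counts, 1.44-fold lower (1.301 to 1.598), and FLT4 had 0 in both libraries.

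In a list of angiopoietins, angiopoietin-like genes and signalling partners of TIE1 and TEK, no measured gene was called. Of 18 listed genes, 8 were measured and 0 were called in either direction. With shares of 6.89% higher and 3.97% lower over all measured genes, 0 of 8 says little about this list. The median log2 ratio of the list was -0.09. That median includes the angiopoietin-like genes ANGPTL2, at -0.45, and ANGPTL4, at -0.65, so it is not a value for the TIE1 and TEK partners alone. With a count minimum of 1 the median was 0.62, for which no whole-table median is given here, and 1 gene, PTPRB, was called higher. At 1.5-fold 3 were higher and 1 lower. ANGPT2, the ligand that modulates TEK in a context-dependent way, had 25 and 52 counts, a ratio of 1.87 (1.14 to 3.14). ANGPT1, the activating ligand, had 2 and 4 counts, and ANGPT4 had 0 in both. ANGPTL4, a secreted lipase inhibitor of the angiopoietin-like family, had 308 and 219 counts, 1.57-fold lower (1.31 to 1.87).

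Endoglin acts with BMP9 and ALK1, and in that list 3 of 21 measured genes were called higher and 0 lower. The shares over all measured genes were 6.89% and 3.97%, and the median log2 ratio of the list was 0.18. The genes called were the inhibitory SMAD6, which rose 2.94-fold (1.96 to 4.52), from 32 to 105 counts, the inhibitory SMAD7, from 8 to 27 and 3.03-fold higher (1.34 to 7.71), and ID2, from 12 to 30 and 2.24-fold higher (1.11 to 4.81), which a pseudocount of 5 took below 2-fold. SMAD6, SMAD7 and ID2 are known as transcriptional targets of BMP and TGF-beta signalling. ID1, the classical BMP target, had 1937 and 2743 counts, a ratio of 1.27 (1.198 to 1.35), and ID3 had 288 and 423, a ratio of 1.32 (1.13 to 1.54). ACVRL1, which encodes ALK1, had 11 and 24 counts, with an interval from 0.922 to 4.42. The ligand genes GDF2 (BMP9) and BMP10 had 0 in both libraries. TGFBR3 (betaglycan), the other co-receptor related to endoglin, had 157 and 333 counts, a ratio of 1.90 (1.57 to 2.31). MMP14, the protease that sheds endoglin from the surface, had 907 and 593 counts, 1.71-fold lower (1.54 to 1.89).

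Junction partners of CDH5 and PECAM1 were read in the same way. Of 25 listed genes, 20 were measured, and 2 were called higher and 1 lower, beside 6.89% and 3.97% of all measured genes. The median log2 ratio of the list was 0.05. F11R, the junctional adhesion molecule JAM-A, rose 2.56-fold (2.14 to 3.07), from 167 to 476 counts, and CGN, the tight junction protein cingulin, rose 2.14-fold (1.21 to 3.95), from 18 to 43, below 2-fold with a pseudocount of 5. CDH2 (N-cadherin) fell 3.66-fold (1.52 to 10.1), from 23 to 7 counts. The catenin genes that bind cadherin tails were abundant, and CTNND1 (p120) had 718 and 953 counts, a ratio of 1.19 (1.08 to 1.31). PTPN11 (SHP2), the phosphatase that docks on PECAM1, had 863 and 938 counts and a ratio of 0.975 (0.888 to 1.07). CD99L2, a partner of PECAM1 in leukocyte passage that lies on the X chromosome, had 1828 and 1035 counts, 1.97-fold lower (1.82 to 2.13), just short of the threshold.

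Endocan is a glycanated protein, so the genes that build its chain were compared. Of 28 genes for the assembly of chondroitin and dermatan sulfate, 25 were measured, and 1 was called higher and 3 lower. The shares over all measured genes were 6.89% and 3.97%, and the median log2 ratio of the list was -0.03. UST, which sulfates uronic acid, rose 2.50-fold (1.55 to 4.17), from 24 to 67 counts. CSGALNACT1, which starts chondroitin chains, fell 3.19-fold (1.697 to 6.34) from 40 to 14 counts, while its relative CSGALNACT2 had 187 and 416 counts, a ratio of 1.995 (1.67 to 2.38) just under the threshold, which it passed with each of the 3 other scalings. DSEL, an epimerase gene for dermatan sulfate, fell 2.92-fold (1.5 to 6.02), whereas its relative DSE had 91 and 140 counts, a ratio of 1.38 (1.05 to 1.82). CHST12, a sulfotransferase, went from 386 to 200 counts and fell 2.15-fold (1.81 to 2.57), and CHST14, the dermatan sulfotransferase, had 271 and 269 counts. Xylosylation, the step that begins every such chain, was represented by XYLT2 with 335 and 439 counts, while XYLT1 had 0 in both.

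Other core proteins that carry such chains were called in both directions. Of 21, 10 were measured, and 2 were called higher and 1 lower, beside 6.89% and 3.97% of all measured genes. The median log2 ratio of the list was 0.11. Beside CSPG4, SRGN, the secretory granule proteoglycan serglycin, rose 3.15-fold (2.83 to 3.51), from 443 to 1555 counts. CD74, the MHC class II invariant chain that exists in part as a proteoglycan, fell 2.83-fold (2.60 to 3.08), from 1963 to 774 counts. DCN, the small leucine-rich proteoglycan decorin, had 0 in both libraries, and VCAN had 0 and 8.

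Among the known inducers and binding partners of endocan, 2 of 10 measured genes were called higher and 0 lower. That stands beside 6.89% and 3.97% of all measured genes, and the median log2 ratio of the list was -0.17. The genes called were the interleukin-1 genes IL1A, which rose 5.85-fold (4.28 to 8.16), from 46 to 300 counts, and IL1B, from 112 to 1083 counts. TNF had 1 and 0 counts, and FGF2 had 57 and 34, 1.87-fold lower (1.20 to 2.95). ITGAL, the chain of the leukocyte integrin LFA-1 that binds endocan, had 1 count in each library, and its partner ITGB2 had 813 and 771. HIF1A had 1039 and 1377 counts, a ratio of 1.19 (1.096 to 1.29). Of the 11 measured binding partners of THY1 and its raft kinases, 0 were called in either direction, which says little beside these whole-table shares. The kinase gene FYN had 130 and 283 counts and a ratio of 1.95 (1.58 to 2.42), past 2-fold with total-count or upper-quartile scaling. The adaptor gene PAG1 had 637 and 375, 1.89-fold lower (1.67 to 2.16), and the integrin gene ITGB3 had 3 and 5.

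**Figure D4:**
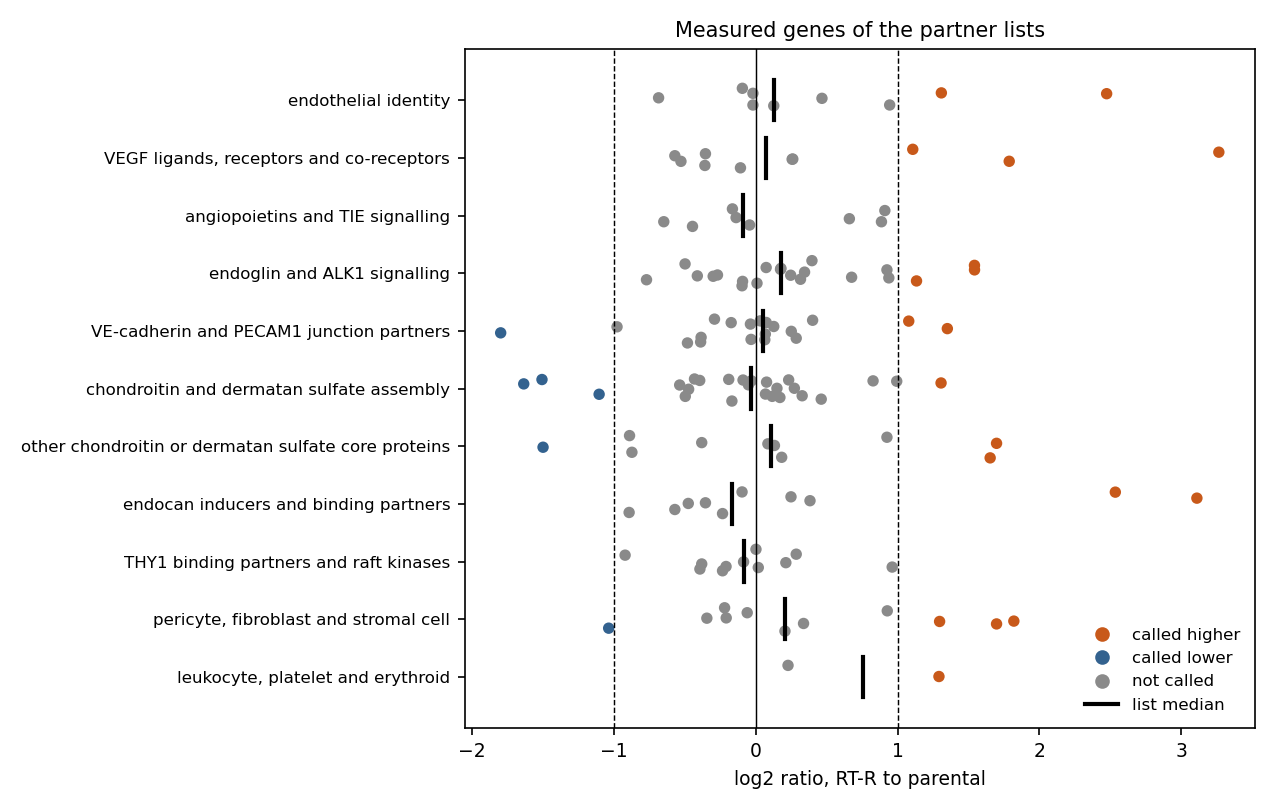
Log2 ratio of RT-R to parental for each measured gene of 11 lists of marker, partner and assembly genes; orange and blue points are genes called higher and lower, grey points were not called, black bars are list medians and dashed lines mark 2-fold. FLT1 is the highest point, at 3.27, and most points lie inside the 2-fold lines.

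Over the 223 different genes of all 12 lists, 135 were measured and their median log2 ratio was 0.03, beside -0.01 over all measured genes. Of these 135, 18 were called higher and 6 lower, 13.3% and 4.44%, beside 6.89% and 3.97% over all measured genes. The lists were drawn up with earlier results of these libraries known, so the shares are given as a description. Of the 18, 6 (CD14, CGN, FLT1, ID2, PROX1 and SMAD7) passed the minimum through RT-R alone, and of the 6 called lower, 3 (CDH2, CSGALNACT1 and DSEL) through the parental library alone.

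The chromosomal neighbours of the 5 measured members were read next, 3 measured genes on each side in RefSeq order. Around ESM1 the 6 neighbours ran from -0.75 (DHX29) to 0.45 (SNX18) on the log2 ratio scale, with a median of 0.28 and 0 called, and the adjacent gene GPX8 had 305 and 432 counts. Around TIE1 on chromosome 1 they ran from -0.53 to 0.17, with 0 called, and the next gene, CDC20, had 791 and 973 counts. Around ENG on chromosome 9 they ran from -0.79 to 0.68, with 0 called. FPGS, which lies next to ENG and was far more abundant, had 1139 and 1119 counts, 1.13-fold lower (1.04 to 1.23). Around THY1 on chromosome 11 the neighbours ran from -0.47 to 1.82, and MCAM, which is described above, was the 1 gene called. Around PECAM1 on chromosome 17 they ran from -1.56 to 0.40. The nearest measured genes on either side were TEX2 with 233 and 178 counts and MILR1 with 65 and 75. Counts under the small nucleolar RNA gene SNORA76C fell 2.94-fold (2.45 to 3.55), from 433 to 164. The kit tags polyadenylated transcripts, and which transcript gave the SNORA76C reads was not tested.

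**Figure D5:**
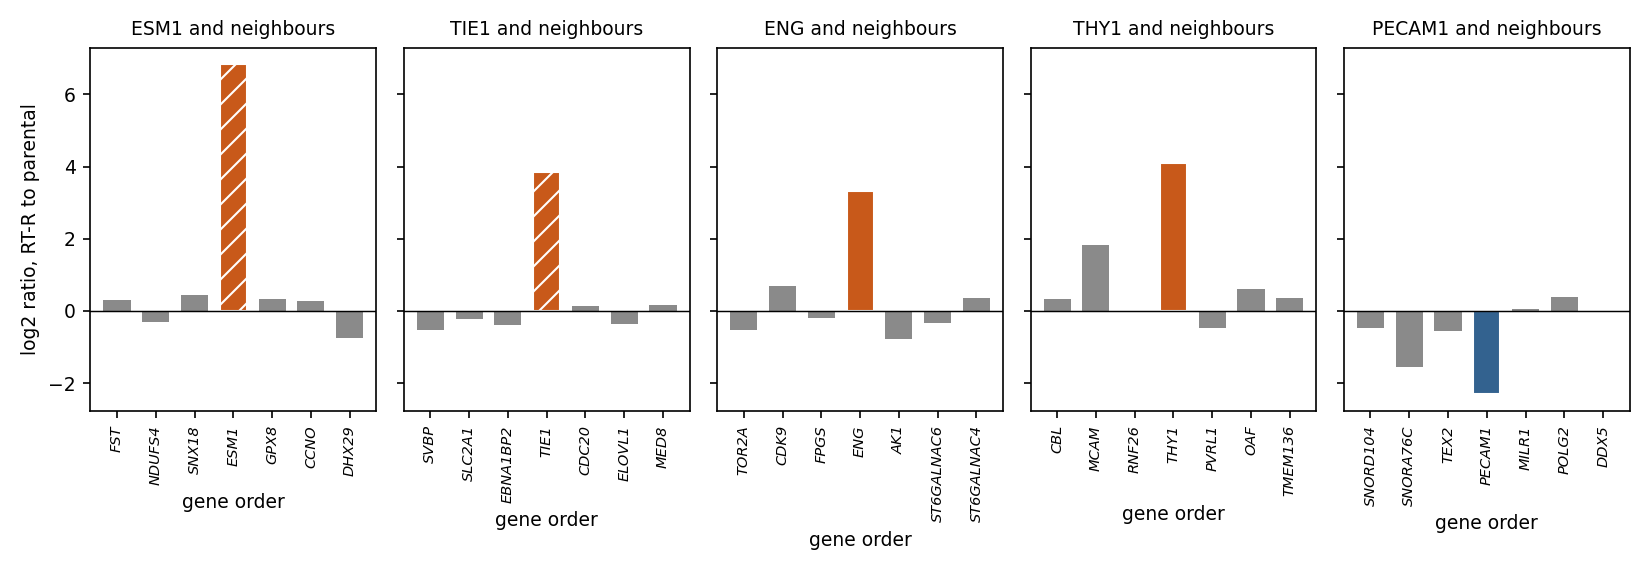
Log2 ratio of RT-R to parental for ESM1, TIE1, ENG, THY1 and PECAM1 (coloured) and for the 3 measured genes on each side of each in gene order (grey). Hatched bars are members with 0 parental counts, drawn with the parental level set at 3 counts. In each panel the member has the bar farthest from 0, and MCAM and SNORA76C are the neighbours past 2-fold.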

How the data were processed

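Raw counts per gene symbol were deposited by the authors, 1 table per library, with whole numbers and no normalization. The genome build hg19 and the tools Bowtie2, bedtools and bcl2fastq 2.20.0.422 are named in the submitters' processing notes. Settings, annotation and use of strand are not given in the sources. Each table had 25737 rows, and repeated symbols were summed. Scaling used edgeR's TMM method (edgeR 4.0.16, R 4.3.3), with no edgeR test. Log2 ratios used scaled counts plus 0.5. Ratio intervals are exact conditional (Clopper-Pearson) 95% intervals and CPM intervals exact Poisson (scipy 1.17.1, Python 3.11.15). No ratio was given with 3 counts or fewer in both libraries. The calculation was tested on simulated Poisson counts with the same scaling, which checks the code and not how cultures or PCR copies vary.

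The members and lists were chosen with earlier results of these data known. Named were all members, called list genes, abundant uncalled ones, ligands, receptors and partners, and the measured neighbours. Some list genes below the count minimum were also named after their counts were seen. Gene order came from RefSeq GRCh38.p14, matched for 98.6% of measured genes, and the counts were made on hg19, so only order was used. Alternatives were other scalings (DESeq2 1.42.0 for the median of ratios), a pseudocount of 5, count minimums of 1 and 100, and 1.5-fold and 4-fold thresholds.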

Additional observations from a re-analysis of the deposited data

How the results depend on the processing

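The 5 called members kept their direction and stayed past the threshold under total-count, median-of-ratios and upper-quartile scaling. With the parental level set at 3 counts, the ratio of ESM1 ran from 114.2 to 117.7-fold and that of TIE1 from 14.35 to 14.79-fold. With a pseudocount of 5 the log2 ratios were 2.33 for ENG, 2.80 for THY1 and -2.20 for PECAM1. With a minimum of 100 counts, 1 member (ESM1) was called higher in place of 4, since the other 3 have fewer than 100 counts, and PECAM1 was still lower. That minimum called 356 genes higher and 265 lower over the whole table, and 9 and 2 in the lists, in place of 871, 502, 18 and 6. A 1.5-fold threshold called 1734 and 1501, and 30 and 15 in the lists, and a 4-fold threshold 292 and 67, and 4 and 0 in the lists. The split of higher and lower calls was 934 and 442 by total counts. Scaling moved the list medians by at most 0.04, which turned the sign of the chondroitin and dermatan sulfate assembly list (-0.03 to 0.01). In 8 of 72 comparisons a list median changed sign or reached 0, 6 of them through the count minimum. The triple negative check list only went from -0.09 to -0.0000. The number of genes called in a list moved by more than 1.5 times, or to or from 0, in 49 of 192 comparisons, 7 of them through scaling. Applying a pseudocount of 5 to the calls was added after the data were seen and called 4 members higher and 1 lower. Depth limits TEK, KDR and CDH5, and any gene near 3 counts. No paired analysis was possible because each line has 1 library.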
